A study of Mus musculus with 3 samples.

Results

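The Clec genes carry the symbols under which most mouse C-type lectin receptors are named, and 33 of the 33696 features in the count matrices have a symbol that starts with Clec followed by a digit. Membership was decided by symbol alone, with no measured value. The 33 genes were described in nuclei of the abdominal aorta of ApoE-/- mice on the C57Bl/6 background. These mice lack apolipoprotein E, so that lipoprotein remnants stay in the blood and arterial plaques form. All 3 groups ate a high fat diet over the 20 weeks of the exposure. The first group breathed room air. The second breathed cigarette smoke and had no abdominal aortic aneurysm, and the third breathed cigarette smoke and had an aneurysm; they are called smoke and aneurysm here. Aortae were frozen, and nuclei were purified with anti-nucleus beads on a magnetic column before droplet RNA sequencing. Each group is 1 library, and the sources used here do not state how many mice went into it. There is no replicate check, so a difference below is between 1 library and another, no p-value is given, and intervals in parentheses are exact 95% intervals that cover counting error only.

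C-type lectins share a fold first described as a calcium-dependent carbohydrate-binding domain. In macrophages and dendritic cells many of them are surface receptors for microbial sugars, crystals or debris of dead cells, and they signal through Syk and Card9 or recruit inhibitory phosphatases. Others are ligands for natural killer cell receptors, endothelial surface proteins or secreted factors of connective tissue. In the mouse most of the myeloid members lie in gene clusters on chromosome 6, where 25 of the 33 were found.

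The room air, smoke and aneurysm libraries held 73891039, 117247048 and 15634797 unique molecular identifiers (UMIs, counted RNA molecules), and 11022, 14001 and 5707 nuclei were kept. Median UMIs per kept nucleus were 4058.5, 6225 and 1443, so the aneurysm library was the shallowest. Nuclei were clustered without the Clec genes, and classes were named from marker genes with the suffix -like. The macrophage-like class held 4746, 5838 and 386 nuclei in room air, smoke and aneurysm, and the dendritic-like class held 656, 908 and 14. Between 26 and 46 barcodes were shared by a pair of libraries, at most 0.395% of the smaller one. Clusters without a class name held 19.1%, 16.9% and 34.7% of the kept nuclei in room air, smoke and aneurysm.

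Macrophage RNA also appeared outside the macrophage-like class. The summed level of 12 macrophage markers in room air, smoke and aneurysm was 5150, 6132 and 5254 CPM (UMIs of a gene per 1000000 UMIs of the class) in macrophage-like nuclei, and still 2021, 2857 and 1529 CPM in T or NK-like nuclei, 883, 1088 and 506 CPM in endothelial-like nuclei, and 639, 1075 and 363 CPM in fibroblast-like nuclei. The part of free RNA in the levels of macrophage members in those classes was not tested.

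The promoters of members whose expression is described below are shown first. By class, Clec7a was highest in macrophage-like nuclei, Clec4a1, Clec2i and Clec9a in dendritic-like nuclei, and Clec14a in endothelial-like nuclei. RefSeq promoter windows (GRCm38.p6, 250 bases before to 50 after a gene's start) were matched for 26 of the 33 members, which gave 29 windows. Clec1a, Clec4n, Clec10a, Clec3b, Clec4a4, Clec2f and Clec3a had no entry. Both strands were searched for 6 motifs. The composite ETS and IRF motif, read as GGAA, any 2 bases and GAAA, is a pattern bound by the myeloid factor PU.1 with IRF partners. It was found in 5 of the 29 member windows and in 2.72% of all 32851 windows. The 5 windows belong to 3 members, Clec7a, Clec4a1 and Clec2i. Clec7a and Clec2i have 2 windows each, of which 1 is printed. Capitals mark that match, which lies on the reverse strand of each printed sequence. The windows are Clec7a at chr6:129472730-129473029 on the minus strand, Clec4a1 at chr6:122921598-122921897 on the plus strand, Clec2i at chr6:128887337-128887636 on the plus strand, Clec9a at chr6:129408612-129408911 on the plus strand, and Clec14a at chr12:58269209-58269508 on the minus strand.
Clec7a: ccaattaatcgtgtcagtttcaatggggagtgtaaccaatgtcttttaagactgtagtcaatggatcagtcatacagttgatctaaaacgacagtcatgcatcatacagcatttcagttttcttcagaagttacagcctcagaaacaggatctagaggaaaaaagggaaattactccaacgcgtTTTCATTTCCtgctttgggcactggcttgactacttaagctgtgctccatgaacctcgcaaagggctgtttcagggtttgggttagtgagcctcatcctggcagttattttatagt
Clec4a1: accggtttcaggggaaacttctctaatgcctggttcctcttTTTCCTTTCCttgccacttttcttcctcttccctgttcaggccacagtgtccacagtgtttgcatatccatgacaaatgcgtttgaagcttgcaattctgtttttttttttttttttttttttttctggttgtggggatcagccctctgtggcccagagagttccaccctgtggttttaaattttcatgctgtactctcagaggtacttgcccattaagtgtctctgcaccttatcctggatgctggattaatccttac
Clec2i: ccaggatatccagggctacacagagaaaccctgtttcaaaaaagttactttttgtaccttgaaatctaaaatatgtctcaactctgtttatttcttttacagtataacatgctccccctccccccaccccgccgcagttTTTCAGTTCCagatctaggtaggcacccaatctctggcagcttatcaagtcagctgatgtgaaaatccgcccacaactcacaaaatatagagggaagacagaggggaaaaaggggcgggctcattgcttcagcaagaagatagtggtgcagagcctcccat
Clec9a: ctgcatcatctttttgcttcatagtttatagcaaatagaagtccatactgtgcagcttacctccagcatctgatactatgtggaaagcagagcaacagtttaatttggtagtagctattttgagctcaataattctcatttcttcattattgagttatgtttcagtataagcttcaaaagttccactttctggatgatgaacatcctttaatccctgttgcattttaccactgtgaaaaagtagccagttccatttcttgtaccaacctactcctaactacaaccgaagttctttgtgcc
Clec14a: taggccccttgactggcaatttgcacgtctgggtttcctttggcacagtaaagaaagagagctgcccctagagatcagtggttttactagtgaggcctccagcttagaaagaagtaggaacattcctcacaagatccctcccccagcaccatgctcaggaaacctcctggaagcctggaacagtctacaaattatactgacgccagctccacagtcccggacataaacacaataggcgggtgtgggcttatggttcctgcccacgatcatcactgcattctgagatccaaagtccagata
The windows of Clec9a and Clec14a held none of the motifs searched. A match is a description of letters and not of binding, and no match says only that those letters are not in the window. The ETS forms GAGGAAGT (3.20% of all windows) and CCGGAAGT (3.89%) were found in 0 members. The AP-1 form TGANTCA was found in 6 of the 29 member windows, of 6 members, against 7.81% of all windows. The C/EBP form TTGCNNAA was in 6 of the 29, of 5 members, against 10.8%. The GATA form AGATAA was in 1 of the 29, of Clec1b, against 11.2%. The composite motif and both ETS forms share the letters GGAA, so their matches may overlap.

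Of the 33 members, 32 had at least 1 UMI in room air, 33 in smoke and 28 in aneurysm. The members together had 30649, 53267 and 4472 UMIs. There were 22 with at least 100 UMIs over the 3 libraries, and these are described by class. The other 11 were Clec12b with 94 UMIs, Clec2f with 34, Clec2l with 33, Clec18a with 31, Clec2e with 19, Clec4b2 with 12, Clec4g with 7, Clec2m with 6, Clec2h with 5, Clec3a with 4 and Clec4f with 1. Clec4f, the Kupffer cell receptor of the liver, and Clec4g, a receptor of liver sinusoids, were thus at the edge of detection in the aorta.

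The 22 members differed in the class in which they were highest, also within a family. Dendritic-like nuclei held the highest CPM for 11 members, macrophage-like nuclei for 4, endothelial-like nuclei for 3, fibroblast-like nuclei for 2, and B-like and lymphatic endothelial-like nuclei for 1 each. The lymphatic maximum was of Clec4e and rested on 10 UMIs in 4 smoke nuclei, 5 of them in 1 nucleus. Macrophage-like nuclei held 81.1% of the UMIs of Clec7a, 80.3% of Clec12a, 82.0% of Clec4d and 77.1% of Clec4e.

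**Figure D1:**
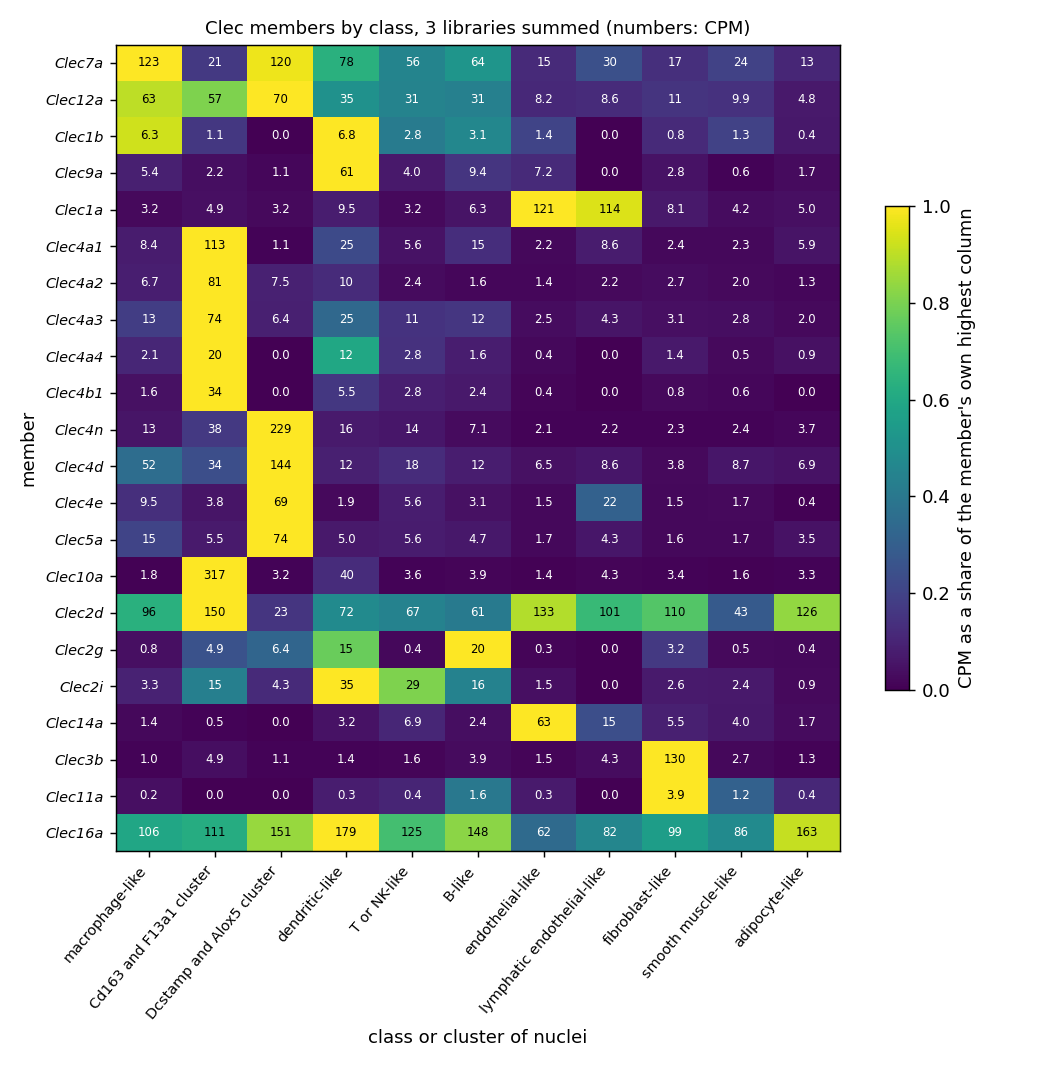
Levels of the 22 Clec genes with at least 100 UMIs (rows) in classes and clusters of nuclei (columns), all libraries together. Numbers are CPM and the colour is the share of each gene's own highest column. The endothelial genes Clec1a and Clec14a and the fibroblast gene Clec3b stand apart from a block of myeloid receptors, and the Cd163 and F13a1 cluster holds the Clec4a genes and Clec10a.

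Macrophage-like nuclei formed 5 clusters, named here by a leading gene. The Cd5l cluster had 1159, 1171 and 36 nuclei in room air, smoke and aneurysm, and the Tmem267 cluster had 1303, 1229 and 165. The Fgf13 cluster had 1205, 1741 and 137, the Adgre4 cluster, which also carried monocyte genes, had 883, 1416 and 30, and the cycling Mki67 cluster had 196, 281 and 18. Further clusters with myeloid genes had no class name. The Cd163 and F13a1 cluster had 90, 185 and 334 nuclei and scored 1.74 for the dendritic list and 1.62 for the macrophage list. The Dcstamp and Alox5 cluster had 58, 32 and 20 nuclei. A shallow cluster of 719, 609 and 530 nuclei, led by Gm48099, Gm19951 and Lars2, scored 1.52 for the macrophage list and 1.09 for the T or NK list, and none of its top 10 genes was a macrophage marker. It is left out of the macrophage-like class. The clusters were drawn from these same nuclei, so the spread of a member over them is given as a description.

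Clec7a, which encodes Dectin-1, the receptor for fungal beta-glucans, was graded over the macrophage-like clusters. In the Cd5l cluster it had 221 CPM (211 to 231) in room air, 221 (213 to 229) in smoke and 163 (91.2 to 269) in aneurysm. In the Tmem267 cluster it had 102, 112 and 42.0 CPM, and in the Fgf13 cluster 44.3, 48.2 and 14.1 CPM. The order Cd5l, Tmem267, Fgf13 was the same in each library, and the room air and smoke intervals of these clusters did not overlap one another. The Adgre4 cluster had 130 and 136 CPM in room air and smoke, and 273 (165 to 427) in its 30 aneurysm nuclei. The latter value rested on 19 UMIs in 6 nuclei, 8 of them in 1 nucleus. At 1000 UMIs per nucleus, 15.6% of Cd5l nuclei had a Clec7a UMI in room air and 13.7% in smoke, against 4.91% and 4.06% of T or NK-like nuclei and 4.44% and 5.75% of B-like nuclei.

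Clec12a, an inhibitory receptor that binds uric acid crystals, had another order. The Fgf13 cluster, lowest of these for Clec7a, was high for Clec12a, with 92.9 CPM (85.6 to 101) in room air, 92.8 (87.8 to 98.1) in smoke and 67.9 (43.5 to 101) in aneurysm. The Tmem267 cluster was the lowest in room air and smoke, with 39.7 and 40.6 CPM, and had 37.4 in aneurysm. The Cd5l cluster had 68.6 and 63.2 CPM in room air and smoke, and 130 (67.4 to 228) in its 36 aneurysm nuclei. Thus the inhibitory receptor and Dectin-1 were at their highest in different macrophage-like clusters in room air and smoke.

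Clec4d, Clec4e and Clec4n encode activating receptors of the Dectin-2 group, known as MCL, Mincle and Dectin-2, which signal through the Fc receptor gamma chain. All 3 were high in the unnamed Dcstamp and Alox5 cluster. There Clec4n had 215 CPM (176 to 261) in room air, 249 (203 to 302) in smoke and 196 (89.6 to 372) in aneurysm, whereas in the macrophage-like class it had 14.3, 11.6 and 14.5 CPM. In that cluster Clec4d had 152, 128 and 196 CPM and Clec4e 48.0, 82.2 and 174 CPM. Clec7a had 157 CPM (123 to 196), 70.1 (47.0 to 101) and 196 (89.6 to 372) in the cluster. Clec5a, which pairs with the adaptor DAP12 (gene Tyrobp), was also high there, with 64.7, 84.7 and 65.3 CPM against 17, 13.9 and 12.4 CPM in macrophage-like nuclei. This cluster held 58, 32 and 20 nuclei, so its aneurysm values rest on 9 UMIs of Clec4n, 9 of Clec4d, 8 of Clec4e and 3 of Clec5a. Among the macrophage-like clusters, Clec4e and Clec4n were highest in the Adgre4 cluster in room air and smoke. Clec4e had 28.3 and 45.3 CPM and Clec4n 38.6 and 36.2 CPM there, while Clec4d was highest in the Tmem267 cluster in smoke, at 62.2 CPM, and in the Mki67 and Tmem267 clusters in room air, at 91.1 and 82.2 CPM.

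**Figure D2:**
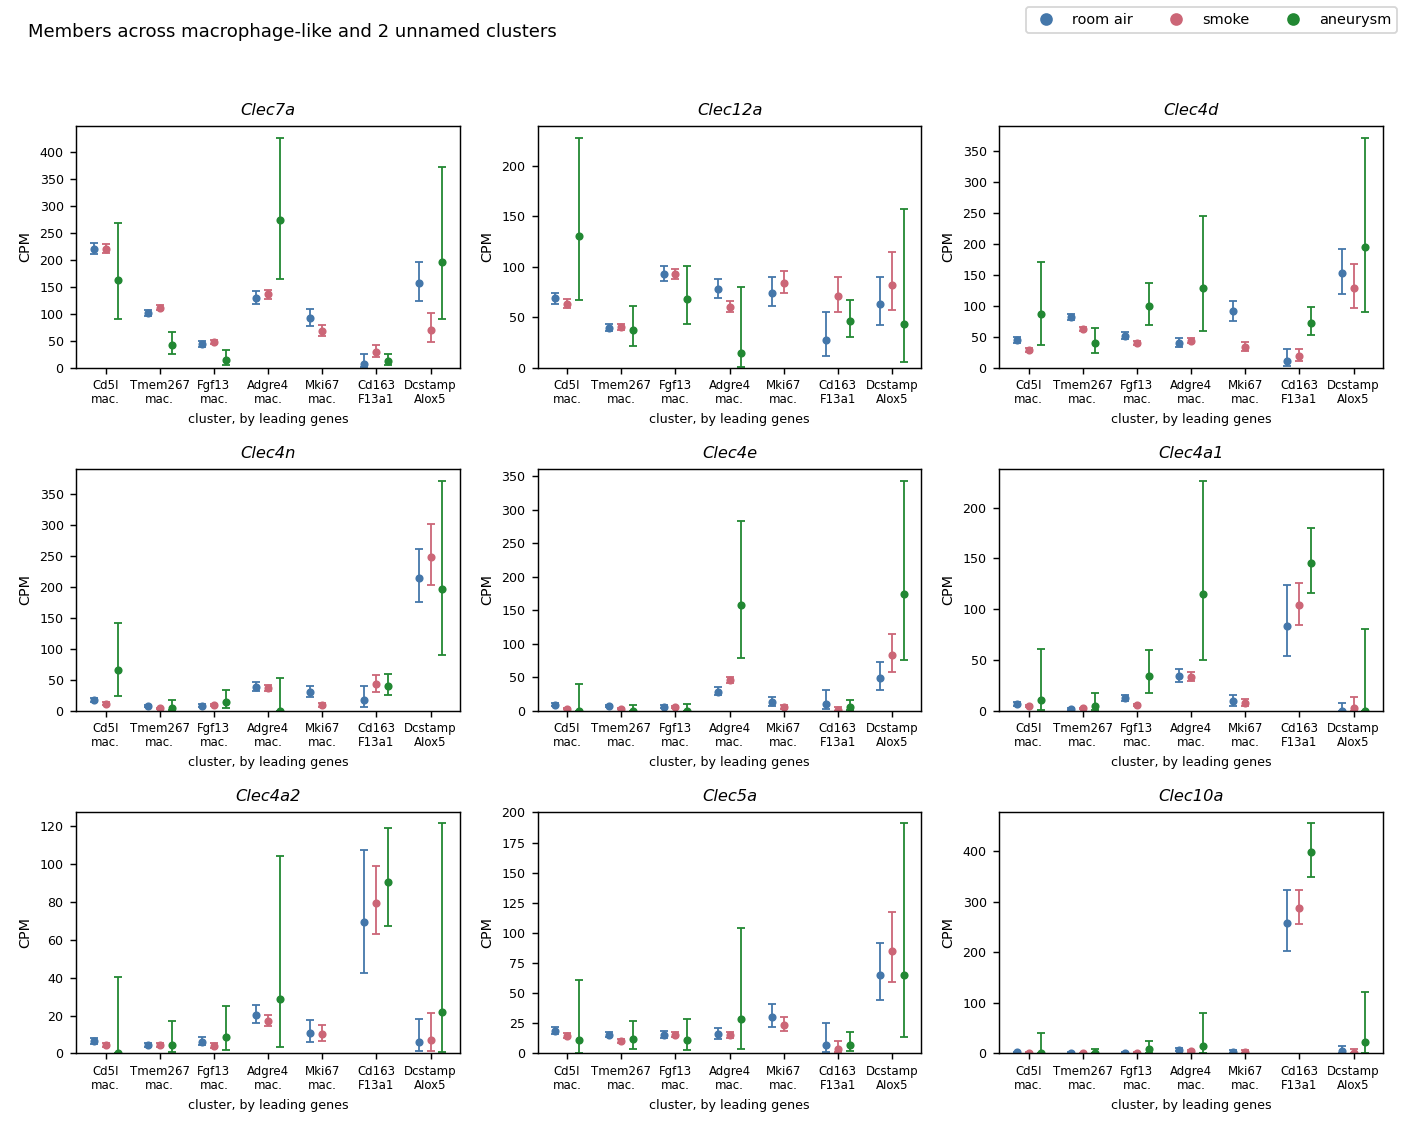
CPM of 9 Clec genes (panels) in the 5 macrophage-like clusters and in the unnamed Cd163 and F13a1 and Dcstamp and Alox5 clusters, by library, with 95% counting intervals. Clec7a is highest in the Cd5l cluster in smoke, at 221 CPM, Clec12a in the Fgf13 cluster, at 92.8 CPM, and Clec10a and Clec4a1 in the Cd163 and F13a1 cluster, at 288 and 104 CPM.

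The Cd163 and F13a1 cluster had a lectin profile of its own. Clec10a, the macrophage galactose-type lectin, had 257 CPM (202 to 322) in room air, 288 (255 to 324) in smoke and 399 (348 to 455) in aneurysm, against 2.13, 1.64 and 4.13 CPM in the macrophage-like class. Clec4a1 had 83.3, 104 and 145 CPM in the cluster, Clec4a2 had 69.4, 79.4 and 90.4, Clec4a3 had 52.1, 72.3 and 88.6, and Clec4b1 had 24.3, 39.7 and 30.1. These are genes of the dendritic cell immunoreceptor group, and Clec4a2 encodes a receptor with an inhibitory motif. Clec7a in the same nuclei was low, at 6.94, 29.5 and 12.4 CPM. The Clec4a and Clec4b genes are close copies of one another in neighbouring positions, so how reads were divided among them is uncertain.

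Dendritic-like nuclei were split into 5 subclusters, and Clec9a and the Clec4a genes marked different ones. Clec9a, whose product DNGR-1 binds actin filaments exposed by dead cells, had 362 CPM (275 to 468) in room air and 435 (380 to 496) in smoke in the Xcr1 subcluster of 57 and 104 nuclei. The other subclusters ranged from 2.85 to 16.8 CPM in room air and from 6.27 to 30.3 CPM in smoke. The aneurysm library had 3 Xcr1 nuclei with 4 Clec9a UMIs. At 1000 UMIs per nucleus, 22.9% (12 to 37.3) of room air and 26.7% (18.4 to 36.5) of smoke Xcr1 nuclei had a Clec9a UMI. Xcr1 and Clec9a are both known markers of type 1 conventional dendritic cells, and Clec9a took no part in the clustering.

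The Cd209a subcluster, of 292 room air and 309 smoke nuclei, had Clec10a at 92.6 and 86.9 CPM, Clec4a1 at 44.9 and 43.0 CPM and Clec4a3 at 43.5 and 43.0 CPM. The 3 genes had overlapping intervals in room air and smoke. Clec4a4, which encodes the inhibitory receptor DCIR2, was instead highest in the Siglech and Adam23 subcluster, at 21.9 CPM (10.5 to 40.3) in room air and 37.6 (27.1 to 50.9) in smoke. In the Il12b and Fscn1 subcluster, which carries genes of migratory dendritic cells, these receptors were low: Clec10a had 8.54 and 1.36 CPM, and Clec4a1 had 2.85 and 2.73. Clec2d, the ligand of an inhibitory natural killer receptor, had 159 CPM (120 to 207) there in room air and 101 (79.2 to 127) in smoke.

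**Figure D3:**
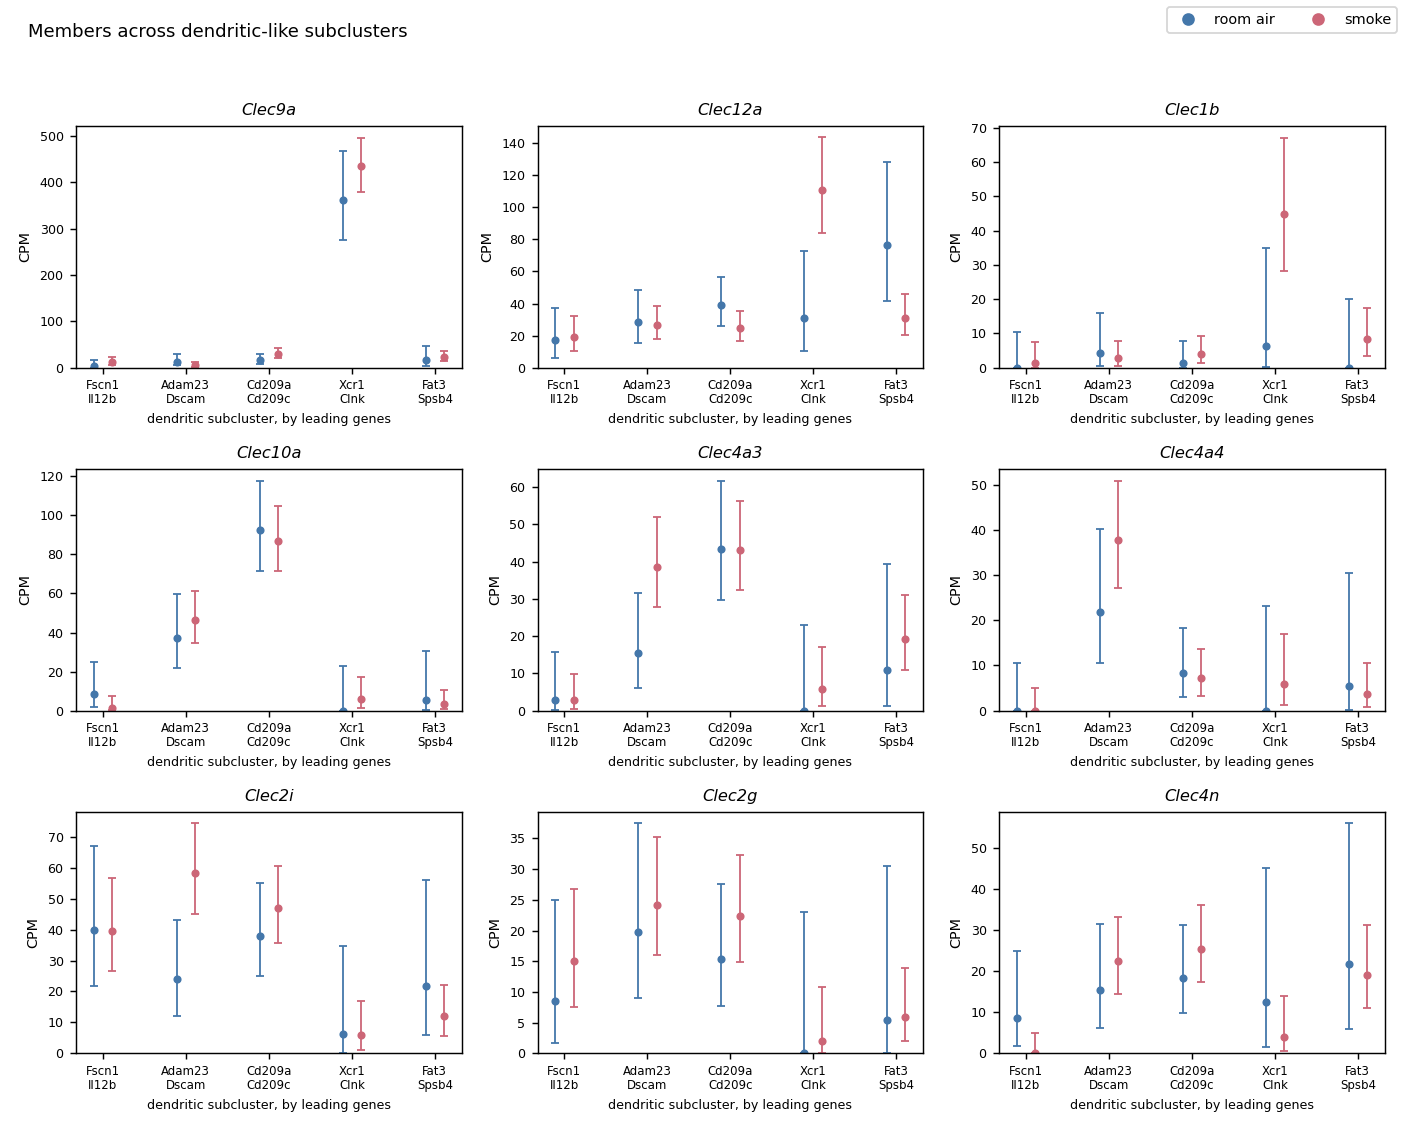
CPM of 9 Clec genes (panels) in the 5 dendritic-like subclusters of the room air and smoke libraries, with 95% counting intervals; the aneurysm library held 14 dendritic-like nuclei and is not drawn. Clec9a stands at 362 and 435 CPM in the Xcr1 subcluster, and Clec10a at 92.6 and 86.9 CPM in the Cd209a subcluster.

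Endothelial-like nuclei carried Clec1a, Clec14a and Clec2d. Clec1a, a receptor for fungal melanin, had 105 CPM (99.9 to 110) in room air, 137 (132 to 142) in smoke and 98.2 (87.4 to 110) in aneurysm, and 85.8% of its UMIs lay in this class. Within the class the Pkhd1l1 cluster was highest in room air and smoke with 210 and 252 CPM, against 147 and 201 in the Btnl9 cluster and 99.3 and 119 in the Edn1 cluster. In aneurysm these clusters had 135 (85.3 to 202), 147 (119 to 180) and 83.8 (71.3 to 97.9) CPM, and the Pkhd1l1 and Btnl9 intervals overlapped. Clec14a, an endothelial surface protein that takes part in vessel sprouting, had 88.3% of its UMIs in the class. Clec12b, an inhibitory receptor gene with 94 UMIs in all, had 86.2% of them there, at 2.09 CPM over the 3 libraries.

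Fibroblast-like nuclei held 76.8% of the UMIs of Clec3b, which encodes tetranectin, a secreted plasminogen-binding protein. It had 113 CPM (98.2 to 128) in room air, 145 (134 to 158) in smoke and 110 (93.5 to 128) in aneurysm. Clec11a, a secreted growth factor of bone marrow stroma, had 2.05, 6.02 and 0.687 CPM in the same nuclei and 105 UMIs in all.

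The Clr genes, whose products are ligands of natural killer receptors, were not confined to a single class. Clec2d had 97.8, 94.7 and 67.2 CPM in macrophage-like nuclei of room air, smoke and aneurysm, and 129, 140 and 105 CPM in endothelial-like nuclei. In adipocyte-like nuclei Clec2d had 271 (208 to 347), 146 (130 to 165) and 95.8 CPM (83.9 to 109). The libraries drew on different clusters of the class. In the larger one, with 34, 103 and 645 nuclei, Clec2d had 275 (211 to 353), 236 (205 to 271) and 117 CPM (101 to 136), so that room air and smoke overlapped and aneurysm was lower, and 19 of the 63 room air UMIs of the class were in 1 nucleus. Clec2i was at 30.6 and 37.3 CPM in dendritic-like nuclei and 19.2 and 30.4 CPM in T or NK-like nuclei of room air and smoke. Clec2g was at 34.6 CPM (18.9 to 58) and 12.7 (6.36 to 22.8) in B-like nuclei. Clec16a, which has the Clec symbol but no lectin domain and acts in endosomes and autophagy, was present in each class described, with 101, 108 and 114 CPM in macrophage-like and 173, 181 and 152 CPM in dendritic-like nuclei.

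The neighbouring genes Clec12a, Clec12b, Clec1b, Clec9a, Clec1a and Clec7a follow one another on chromosome 6 with 0 protein-coding genes between them in RefSeq, and their levels could be compared with that order. Clec1b, which encodes the podoplanin receptor CLEC-2 of platelets, took the same order as Clec7a over 3 macrophage-like clusters. It had 22.1 CPM (19.1 to 25.5) in room air and 12.9 (11 to 14.9) in smoke in the Cd5l cluster, against 4.53 and 1.87 in the Tmem267 cluster and 1.56 and 1.48 in the Fgf13 cluster. Clec9a took the same order over these 3 clusters at 15.0 and 9.17, 3.61 and 2.21, and 1.71 and 0.812 CPM. The Adgre4 cluster lay outside this order, with Clec9a as high as in the Cd5l cluster in room air and lower than there in smoke. In the Xcr1 subcluster all of Clec1b, Clec9a and Clec1a were seen. There Clec1b had 6.25 and 44.7 CPM in room air and smoke, and Clec1a had 25 (6.81 to 64.0) and 36.9 (22.2 to 57.7) CPM, against 4.29 and 11.7 CPM of Clec1a in the whole dendritic-like class.

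The gene bodies of these neighbours touch. In the GENCODE vM21 annotation, Clec1b and Clec9a overlap by 474 bases on the same strand, the 1 overlap among 23 neighbouring pairs of members. Clec9a and Clec1a lie on opposite strands with 8 bases between them. Among endothelial-like nuclei, Clec1a was detected in 62.7% of the 67 room air and 74.2% of the 159 smoke nuclei with a Clec9a UMI, against 35.9% and 49.1% of the rest. The nuclei with Clec9a were also deeper, with medians of 9967 against 5748 UMIs in room air and 10222 against 8144 in smoke. The part of overlap, of reads running past gene ends and of depth in the low levels of Clec9a and Clec1b outside the Xcr1 subcluster was not tested.

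Macrophage-like nuclei of smoke and room air differed little in most Clec genes. A member was counted as higher or lower when its CPM differed by at least 1.5-fold and it had at least 20 UMIs in both libraries together. Of 22 members tested, 2 were higher in smoke, where 10.5% of 16941 genes were, and 2 were lower, where 5.31% of all genes were. The median log2 ratio was 0.0011 over the members and 0.02 over all genes. Clec7a had 125 CPM (121 to 129) in room air and 124 (121 to 127) in smoke, and Clec12a had 63.1 and 63.7 CPM, a ratio of 1.01 (0.955 to 1.06).

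The 2 lower members were the neighbours Clec1b and Clec9a. Clec9a had 7.59 CPM (6.68 to 8.59) in room air and 3.88 (3.38 to 4.43) in smoke, a ratio of 0.511 (0.423 to 0.615). Clec1b had 8.78 and 4.81 CPM, a ratio of 0.548 (0.463 to 0.650). Both ratios were below 1 in the Cd5l cluster, where they were 0.613 and 0.581, and in the Tmem267 cluster, at 0.611 and 0.414. In the Adgre4 cluster Clec9a had 15.3 CPM in room air and 3.18 in smoke, a ratio of 0.207 (0.123 to 0.340). The 2 higher members, Clec14a at 1.66 (1.11 to 2.53) and Clec2g at 1.54 (0.906 to 2.73), were at 1.71 and 0.937 CPM in macrophage-like nuclei of smoke, where endothelial-like nuclei had 80.3 CPM of Clec14a. The ratio of Clec2g turned below 1 without the mitochondrial limit, with 15 principal components and with each library clustered alone.

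In the Cd5l, Tmem267 and Mki67 clusters activating Dectin-2 receptors were lower in smoke than in room air, and Clec4e was higher in the Adgre4 cluster. In the Fgf13 cluster Clec4n was at 1.11, Clec4e at 0.882 and Clec4d at 0.780, all within 1.5-fold. Other members were lower there, 4 of 20, where 606 of 13258 genes were, and 2 were higher, where 1534 were. The lower ones were Clec4a4 at 0.330, Clec4a1 at 0.443, Clec4a2 at 0.652 and Clec9a at 0.474, the last from 11 UMIs in each library. In the Cd5l cluster 6 of 19 members were lower, where 6.63% of all genes were. They were Clec4e, Clec4n and Clec4d, and also Clec1b, Clec9a and Clec10a. Clec4e was at 8.98 CPM in room air and 3.08 in smoke, a ratio of 0.343 (0.229 to 0.507), with Clec4n at 0.653 and Clec4d at 0.641. Of the Clec4e UMIs there, 20 of 78 and 25 of 41 were in 1 nucleus each, and without these nuclei the Clec4e ratio was 0.180. In the Tmem267 cluster 5 of 18 members were lower, where 5.66% of all genes were. They were Clec4n at 0.515, Clec4e at 0.440, Clec1b, Clec9a and Clec10a, while Clec4d was within 1.5-fold at 0.756. In the Mki67 cluster 5 of 15 were lower, where 9.46% of all genes were, with Clec4n at 0.282, Clec4d at 0.363 and Clec4e at 0.388. Without the nucleus with most Clec4n UMIs in each library, of which the room air one held 19 of 42, Clec4n was at 0.444. In the Adgre4 cluster, 1 of 21 members was higher, where 12% of all genes were, and that was Clec4e, at 28.3 CPM (22.9 to 34.6) in room air and 45.3 (40.7 to 50.3) in smoke, a ratio of 1.60 (1.27 to 2.03). Over the whole macrophage-like class Clec4e had a ratio of 1.01, joining clusters with opposite differences. The class ratio of Clec4e depended on the nuclei taken in and was 0.445 at a minimum of 1000 UMIs per nucleus.

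In aneurysm, macrophage-like nuclei had lower Clec7a and higher Clec4a1 and Clec4d levels than in smoke. Of 19 members tested, 4 were higher in aneurysm than in smoke, where 22.8% of 13992 genes were, and 2 were lower, where 15.2% of all genes were. The median log2 ratio was 0.10 over the members and 0.04 over all genes. Against room air, 4 of 19 members were higher, where 20.2% of all genes were, and 3 were lower, where 12.9% were, with medians of 0.17 and 0.04. These comparisons share the aneurysm library, which held 386 macrophage-like nuclei with a median of 1861 UMIs, and 165 and 137 of those nuclei were in the Tmem267 and Fgf13 clusters.

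Clec7a had 60.0 CPM (45.5 to 77.5) in aneurysm, from 58 UMIs, against 124 in smoke and 125 in room air. The ratio was 0.484 (0.367 to 0.627) to smoke and 0.481 (0.365 to 0.623) to room air. Within clusters it was 0.376 (0.223 to 0.596) in the Tmem267 cluster and 0.293 (0.0949 to 0.688) in the Fgf13 cluster, so a lower level was also seen inside the clusters that held most of the aneurysm nuclei. The Cd5l cluster, with 15 UMIs in aneurysm, overlapped the other libraries. The Adgre4 cluster was higher, from 19 UMIs in 6 nuclei, of which 8 were in 1 nucleus.

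Clec4a1 had 23.8 CPM (15.1 to 35.7) in aneurysm against 8.17 (7.43 to 8.95) in smoke and 8.38 (7.42 to 9.43) in room air, a ratio to smoke of 2.91 (1.83 to 4.42). In the Fgf13 cluster the ratio was 6.38 (3.15 to 11.8), from 12 aneurysm UMIs. Smoke itself was at 0.443 of room air in that cluster, and aneurysm was at 2.83 times room air. Over the alternatives the class ratio of Clec4a1 to smoke ranged from 1.81 after thinning to 6.97 with the Cd163 and F13a1 cluster added. Clec4d had 72.4 CPM (56.4 to 91.4) in aneurysm against 44.8 in smoke and 62.4 in room air, a ratio to smoke of 1.62 (1.25 to 2.05). It was 2.47 (1.70 to 3.48) in the Fgf13 cluster and 0.638 (0.370 to 1.03) in the Tmem267 cluster, and the latter interval includes 1. Against room air, Clec4d in aneurysm was at 1.93 in the Fgf13 cluster and 0.483 in the Tmem267 cluster. These clusters thus went opposite ways, from 35 and 17 aneurysm UMIs.

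The shallow unnamed cluster that scored best for the macrophage list took no part in these ratios. In room air, smoke and aneurysm Clec7a had 75.5, 87.1 and 32.0 CPM there, Clec4a1 had 7.99, 11.4 and 37.4, and Clec4d had 39.9, 32.1 and 76.6. In aneurysm the Clec7a interval (19.0 to 50.6) lay below and the Clec4a1 (23.1 to 57.1) and Clec4d (55.4 to 103) intervals lay above those of both other libraries.

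Clec9a had 14.5 CPM (7.91 to 24.3) in aneurysm against 3.88 in smoke, a ratio of 3.73 (2.01 to 6.40). This rested on 14 UMIs, of which 13 were in 6 nuclei of the Cd5l cluster and 6 in 1 nucleus. Without the nucleus with most Clec9a UMIs in each library, the ratio to smoke was 2.22. The other members past 1.5-fold against smoke, Clec10a at 2.52 (0.672 to 6.68) and Clec2i at 0.288 (0.0073 to 1.62), had intervals that include 1. Clec12a, at 58.9 CPM (44.6 to 76.3) in aneurysm, was within 1.5-fold of the other libraries. Clec14a and Clec4b1 had 0 UMIs in macrophage-like nuclei of aneurysm, and 3 UMIs there would be 3.10 CPM, above their levels in smoke, so no fold is given.

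**Figure D4:**
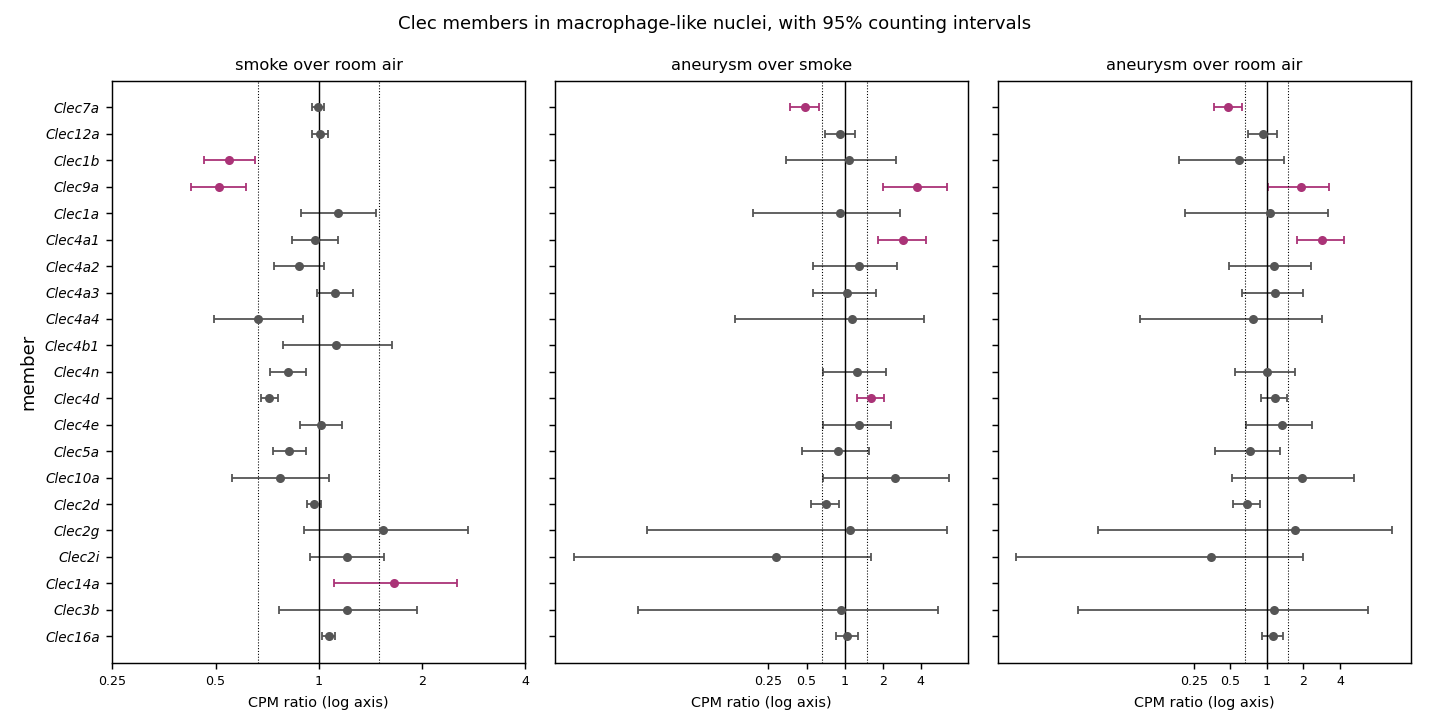
CPM ratios of the Clec genes in macrophage-like nuclei on a log axis, for smoke over room air, aneurysm over smoke and aneurysm over room air, with 95% counting intervals. Purple marks ratios of at least 1.5-fold whose interval excludes 1. Clec7a lies at 0.484 of smoke and 0.481 of room air in aneurysm, and Clec1b and Clec9a lie at 0.548 and 0.511 of room air in smoke.

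In the Cd163 and F13a1 cluster, which held 334 of the 5707 aneurysm nuclei, 7 of 13 members were higher in smoke than in room air, where 17.8% of all genes were. The lower members were 1, where 696 of 6376 genes were. The room air side was 90 nuclei with 288092 UMIs, so that members at low levels rested on few UMIs there. In aneurysm against smoke, 2 of 13 were higher, where 19.2% of all genes were, and 3 were lower, where 14.6% were. Clec4d had 10.4 CPM (2.15 to 30.4) in room air, 19.3 (11.6 to 30.2) in smoke and 72.7 (52.2 to 98.6) in aneurysm, a ratio to smoke of 3.76 (2.13 to 6.86). Clec10a was 1.38 (1.16 to 1.66) times its smoke level and 1.55 (1.19 to 2.05) times its room air level in aneurysm. Clec4a1 was 1.40 (1.03 to 1.89) times its smoke level. The summed macrophage markers of this cluster in the 3 libraries were 3929, 4432 and 4273 CPM and the summed dendritic markers 1951, 2931 and 1034 CPM, and their part in these differences was not tested.

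Dendritic-like nuclei were compared between smoke and room air. Of 19 members, 3 were higher in smoke, where 12.8% of 11259 genes were, and 1 was lower, where 5.15% of all genes were. The median log2 ratio was 0.11 over the members and 0.05 over all genes. The summed macrophage markers were 1164 CPM in dendritic-like nuclei of room air and 1637 in smoke. A subcluster with more macrophage than dendritic marker signal, at 3769 and 4374 CPM of the macrophage list, held 33 and 87 of the nuclei. The part of this signal in the ratios was not tested. Clec9a had 42.9 CPM (34.0 to 53.4) in room air and 66.9 (59.5 to 75.0) in smoke, a ratio of 1.56 (1.21 to 2.02). Inside the Xcr1 subcluster the ratio was 1.20 (0.896 to 1.63), and that subcluster made up 57 of 656 room air and 104 of 908 smoke nuclei of the class. With each library clustered alone, the log2 ratio in dendritic-like nuclei was -1.76 for Clec9a and -0.41 for Clec1b, so the direction of both depends on which nuclei the class takes in. Clec1b had 4 UMIs in room air and 39 in smoke, a ratio of 4.08 (1.47 to 15.7), and Clec1a had a ratio of 2.72 (1.28 to 6.63). Clec4b1 was the lower one, at 0.497 (0.242 to 1.03), and its direction turned with 15 principal components and at resolution 2.

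Differences inside subclusters went beyond those of the class for a few genes. In the Xcr1 subcluster Clec12a had 31.2 CPM (10.1 to 72.9) in room air, from 5 UMIs, and 111 (83.9 to 144) in smoke, a ratio of 3.55 (1.43 to 11.3), or 5.39 without the nucleus with most Clec12a UMIs in each library. In the Siglech and Adam23 subcluster Clec2i had 24.1 and 58.3 CPM, a ratio of 2.42 (1.27 to 5.08). Clec7a was higher in smoke in the Cd209a subcluster, at 1.61 (1.16 to 2.25), and lower in the Il12b and Fscn1 subcluster, at 0.495. Summed macrophage markers in room air and smoke were 600 and 606 CPM in the Xcr1 subcluster, 1088 and 1428 in the Cd209a subcluster and 942 and 963 in the Il12b and Fscn1 subcluster.

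Over the whole class, endothelial-like nuclei had more Clec14a in smoke than in either other library. Of 19 members, 6 were higher in smoke than in room air, where 14.2% of all genes were, and 1 was lower, where 3.43% were. Besides Clec14a, the higher ones were Clec4a3 at 2.51, Clec9a at 2.10, Clec3b at 1.86, Clec4e at 1.82 and Clec12b at 1.55. Of the 37 smoke UMIs of Clec4e, 10 were in 1 nucleus. Macrophage-like nuclei held 66.7% of all Clec4a3 UMIs and 77.1% of all Clec4e UMIs. Summed macrophage markers in endothelial-like nuclei were also higher in smoke than in room air. Their part in these ratios was not tested. Clec14a had 46.3 CPM (43.0 to 49.7) in room air, 80.3 (76.4 to 84.3) in smoke and 37.8 (31.3 to 45.4) in aneurysm. The ratio of smoke to room air was 1.73 (1.59 to 1.90) and that of aneurysm to smoke 0.471 (0.387 to 0.569). By cluster the smoke to room air ratio of Clec14a was 1.79 (1.62 to 1.99) in the Edn1 cluster, 3.46 (1.61 to 8.88) in the Btnl9 cluster and 1.19 (0.963 to 1.48) in the Pkhd1l1 cluster. In the endothelial-like cluster led by Kif26a, with 463, 316 and 260 nuclei, it was also 1.79. There Clec14a in aneurysm was 1.41 times its smoke level and 2.54 times its room air level, from 16 aneurysm UMIs. In the Edn1 cluster aneurysm was at 0.460 of smoke. Over the class Clec1a moved less, with 1.31 (1.23 to 1.39) for smoke over room air and 0.716 (0.634 to 0.807) for aneurysm over smoke. These Clec1a ratios were 0.856 and 1.40 in the Kif26a cluster, against 1.20 and 0.705 in the Edn1 cluster.

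Between aneurysm and smoke, 9 of 19 members were lower in endothelial-like nuclei, where 20.1% of all genes were, and 2 were higher, where 12% were. The lower ones included Clec7a at a ratio of 0.0720 and Clec12a at 0.141, genes of macrophages, and the summed macrophage markers in these nuclei were 1088 CPM in smoke and 506 in aneurysm. The part of that background in these ratios was not tested. Clec3b in fibroblast-like nuclei was 1.29 (1.10 to 1.51) for smoke over room air and 0.757 (0.631 to 0.903) for aneurysm over smoke, within 1.5-fold both times.

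The partners of these receptors in macrophage-like nuclei were read from lists of the pathway. Of 18 genes of the Syk and Card9 route, 0 were higher and 0 lower in smoke than in room air, with a median log2 ratio of 0.06 beside 0.02 over all genes, of which 10.5% were higher and 5.31% lower. Of 6 adaptors with activating motifs, 1 was higher, Tyrobp, the partner of Clec5a, at 24.0 CPM in room air, 48.3 in smoke and 22.7 in aneurysm, a ratio of 2.02 (1.86 to 2.19) for smoke over room air. The 3 inhibitory phosphatases stayed within 1.5-fold. Of 27 C-type lectins under other names, 4 were higher and 2 lower, with Ly75, an endocytic receptor, at 0.491 (0.456 to 0.529). Among 11 binding partners, 1 was higher and 1 lower, the latter being Pdpn, the ligand of CLEC-2, at 0.644 (0.614 to 0.675).

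Against smoke, the aneurysm library had 3 of the 18 Syk and Card9 genes higher and 5 lower, with a median log2 ratio of -0.06 beside 0.04 over all genes, of which 22.8% were higher and 15.2% lower. Against room air 2 were higher, Card9 and Nfatc2, and 2 lower, Malt1 and Nlrp3, where 20.2% and 12.9% of all genes were. Relative to smoke, Syk itself was at 0.613, Malt1 at 0.554, Lyn at 0.607, Rel at 0.552 and Nlrp3 at 0.352. Card9 was at 1.62, Src at 1.64 and Nfatc2 at 1.60 of smoke. Of the 6 adaptors 1 was higher and 3 lower, with Tyrobp at 0.471 and Fcgr3 at 0.461, and the 3 phosphatases were within 1.5-fold. Of 17 C-type lectins under other names 10 were higher and 1 lower, with a median log2 ratio of 0.67. Of the 10, Mgl2, Klrb1c and Acan rested on 1 aneurysm UMI each, and Pla2r1, Cd69 and Selp on 7, 6 and 5, with intervals that include 1. The other 4 were Colec12, a scavenger receptor with a collagen stem, at 2.98 (2.71 to 3.28), Mrc2 at 2.75, Layn at 2.13 and Cd72 at 1.80. Against room air 6 of 14 were higher and 2 lower, with a median log2 ratio of 0.19. Of 9 binding partners compared with smoke, 3 were higher and 1 lower, with Pdpn at 1.70. In dendritic-like nuclei 0 of the 18 Syk and Card9 genes passed 1.5-fold between smoke and room air, and Cd209a, the mouse DC-SIGN homologue, was at 0.550 (0.416 to 0.730).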

How the data were processed

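Single-nucleus RNA was counted in 3 libraries, 1 each of room air, smoke and aneurysm. The authors deposited raw counts, whole numbers of UMIs for each gene in each barcode. Cell Ranger is version 8.0.1 in the matrix header and version 2.2.0 in the submitters' processing notes, which also list STAR and mm10. Which holds is unsettled, so no gene coordinates were taken from the files. The lowest total of a deposited barcode was 500 UMIs. The sources used here give no strand or intron setting and no doublet removal.

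Kept barcodes had 500 or more UMIs, 300 or more genes and less than 5% mitochondrial UMIs. They were scaled to 10000 UMIs, log transformed and clustered with scanpy 1.11.5 (python 3.11.15) on 2000 variable genes less the members, 30 principal components, 20 neighbours and resolution 1, which gave 28 clusters. Clusters were named from marker lists. The scoring rule was set after the data were seen, and 6 clusters stayed unnamed. Dendritic-like nuclei were clustered again at resolution 0.5. Scrublet marked 367, 404 and 1 nuclei as doublets in room air, smoke and aneurysm; it did not work in the aneurysm library, and marked nuclei were kept.

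Levels are CPM, the UMIs of a gene per 1000000 UMIs of the class in a library, with exact Poisson 95% intervals. Ratios have exact conditional binomial 95% intervals. Intervals and the limit for a count of 0, set at 3 UMIs, cover counting error only. Shares of nuclei with a UMI were taken after thinning to 1000 UMIs. The rule for named genes took members with 100 or more UMIs, counts only for the others, and further genes only from the pathway lists; examples of these past 1.5-fold are given. No test was made between groups because each has 1 library. The calculation of ratios was tested on simulated data. Members, pathway lists and markers were chosen with earlier results of these data known. Alternatives changed the filters, clustering, thinning and naming. Promoter windows came from RefSeq (GRCm38.p6) and gene bodies from GENCODE vM21.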

Additional observations from a re-analysis of the deposited data

Results flagged for a closer look

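Clec9a and Clec1b, neighbours on chromosome 6, had differences between libraries that pointed in opposite directions in different classes. None of these differences between classes was tested, because each group has 1 library. For smoke over room air, Clec1b was at a log2 ratio of 2.03 in dendritic-like and -0.87 in macrophage-like nuclei, a gap of 2.9, with 4 UMIs in dendritic-like nuclei of room air. Clec9a was at 0.64 in dendritic-like and -0.97 in macrophage-like nuclei, a gap of 1.61. It was at 1.07 in endothelial-like nuclei, a gap of 2.04 to macrophage-like nuclei. With each library clustered alone, the dendritic-like values were -1.76 for Clec9a and -0.41 for Clec1b. Their direction in that class thus depends on which nuclei it takes in. For aneurysm over smoke, Clec9a was at 1.90 in macrophage-like and -1.75 in endothelial-like nuclei, a gap of 3.65, from 14 and 9 aneurysm UMIs.

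Clec2g, a Clr gene, was at a log2 ratio of 2.14 in fibroblast-like and -1.44 in B-like nuclei for smoke over room air, a gap of 3.58. It had 2 UMIs in fibroblast-like nuclei of room air, and the difference was not tested.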

How the results depend on the processing

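Over the alternatives, 878 of 986 values of single genes moved by less than their counting interval, 98 moved further, and 10 changed sign from a value past 1.5-fold, and 77 of 110 counts of members stayed within 1.5 times. A further 125 alternative values had the other sign from a reported value within 1.5-fold. The cause of each change was not tested. The lower Clec7a of aneurysm kept its direction throughout, with log2 ratios from -1.60 to -0.58 against smoke and from -1.63 to -0.63 against room air. Clec9a and Clec1b in macrophage-like nuclei also kept theirs in smoke over room air, from -1.21 to -0.91 and from -1.23 to -0.65. Clec9a of aneurysm rested partly on 1 nucleus. With the highest count of every gene taken out in each library, its log2 ratio was 1.22 against smoke and 0.25 against room air.

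Counts of members moved most where the nuclei of a class changed. In macrophage-like nuclei, smoke over room air, 1 member was higher with the members among the variable genes, at 1000 UMIs or more per nucleus, without the mitochondrial limit, with 15 components, at resolution 0.5 or 2 and with each library clustered alone, and 0 when only members not below all other nuclei were counted. The lower members were 4 with the members among the variable genes, at resolution 2 and by library, and 5 at 1000 UMIs. For aneurysm over smoke, 8 were higher without the mitochondrial limit, 9 by library, 2 after thinning and 11 with the Cd163 and F13a1 cluster added, while 4 were lower by library and 1 with that cluster or with only members not below other nuclei. For aneurysm over room air, 6 were lower at resolution 2, and the higher ones were 7 by library, 1 after thinning, 2 with only members not below other nuclei, 2 without the nucleus with most UMIs and 9 with the Cd163 and F13a1 cluster. In dendritic-like nuclei, 5 were higher with the members among the variable genes, 1 with 15 components and 8 at resolution 2, and the lower ones were 0 at resolution 2, 12 by library, 0 after thinning, 0 with a minimum of 50 UMIs per gene and 4 with a minimum of 5.

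The values past 1.5-fold that changed sign were these. Clec2g in macrophage-like nuclei, smoke over room air, was at -0.064 without the mitochondrial limit, -0.44 with 15 components and -0.00278 by library. With the Cd163 and F13a1 cluster, Clec2i was at 0.027 against smoke and 0.34 against room air in aneurysm. Clec1b in aneurysm over room air was at 0.079 without the mitochondrial limit. In dendritic-like nuclei Clec4b1 was at 0.33 with 15 components and 0.72 at resolution 2, and by library Clec1b was at -0.41 and Clec9a, which had 80 and 298 UMIs there, at -1.76. After thinning, Clec9a of dendritic-like nuclei was at 0.13. No paired analysis was possible because each group is 1 library. The alternatives with the Cd163 and F13a1 cluster without nuclei marked as doublets, and without the top nucleus in single clusters were added after the data were seen.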
